A study of Drosophila melanogaster with 15 samples.

Results

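The genes described here are the brightly measured genes of Drosophila melanogaster embryos, set in all embryos irradiated with a low dose of gamma rays against embryos that were not irradiated. A gene was taken as bright where its probe set averaged 9 or more on the log2(intensity + 1) scale over the 15 arrays, which is an intensity of about 511, carried 1 gene symbol and was no Affymetrix control. This held for 3759 of 18952 probe sets, which stand for 3641 genes. Of the 15 arrays 12 were of irradiated embryos, so genes higher in these passed the threshold more easily and genes lower in them less easily. The irradiated embryos had received 500 µGy at 22.4 mGy/h and were frozen 5, 30, 60 or 90 min afterwards, with 3 arrays at each time and 12 in all. The 3 control arrays were of embryos with 0 µGy. All 5 groups were pools of whole w[1118] embryos, a laboratory stock with white eyes, frozen at an age of 3 to 4 h, so embryos frozen later after the dose had been younger when they received it. The replicates are lettered A, B and C in each group and are called biological in the labels. Each irradiated array was set against the control of its own letter, which gives 12 differences for a gene, and genes were ranked by how well those 12 differences agreed in sign and size. The 4 differences of a letter share 1 control array, so they are not independent, and a single control that stands high or low moves all 4 together.

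At this age the fly embryo is passing from RNA that the mother stored in the egg to RNA made from its own genome. Stored messages such as those of the germ plasm are destroyed in the soma and kept in the pole cells, the future germline. Meanwhile the blastoderm has formed cells, the mesoderm is folding inward and the neuroectoderm begins to set neural precursors aside. Ionizing radiation breaks DNA, and in fly embryos large doses are known to switch on a set of genes through the transcription factor p53, among them repair and cell death genes. In whole embryos, fewer cells of a type and less RNA per cell cannot be told apart.

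Over the bright probe sets the arrays resembled each other by letter more than by group, with a median correlation of 0.9383 between arrays of the same letter in different groups and of 0.6881 between arrays of the same group. The 90 min B array stood apart from its letter, with a correlation of 0.901 with control C and of 0.602 with control B. The hybridization spike-in controls, which are added to each sample before it goes on the array, lay between 11.63 and 11.97 on the log2 scale in the C arrays, 60 min B and 90 min B, and between 10.94 and 11.30 in the other 8 arrays. Their part in the results was not tested. The counts in all arrays are therefore also given without 60 min B and 90 min B, and so is each gene class described here whose median moved by over 1.5 times without them. Leaving out a control array leaves out its letter, and class medians that moved as far without a letter are given so too. The ratio of 3′ to 5′ signal of the GAPDH control probe sets, a measure of RNA integrity, was higher by 0.21 on the log2 scale in the irradiated arrays (two-sided exact permutation test over all choices of 3 controls, p = 0.0659, and p = 0.022 without control C). For actin the difference was -0.08 (exact p = 0.587) and for eIF-4a -0.01 (exact p = 0.886). Adjusted over the 3 genes the lowest p with all controls was 0.198 (exact permutation test).

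No bright gene passed the test of the irradiated mean against control. With the 5 groups fitted in limma, 0 of the 3759 bright probe sets had an adjusted p under 0.05, and the share called over all 11261 probe sets tested was 0.0%. The smallest adjusted p among the bright probe sets was 0.978 in limma, and 68 of them had an unadjusted p under 0.05. The same fit called 0 bright probe sets for a slope over the 4 times, with 15 at an unadjusted p under 0.05 and 0.0% called over all probe sets. It also called 0 at each time, again 0.0% of all probe sets, with 39, 5, 37 and 15 bright probe sets at an unadjusted p under 0.05 at 5, 30, 60 and 90 min. A letter term in the model, as a fixed block, left the count at 0, with a smallest adjusted p of 0.0624 in limma and 623 bright probe sets at an unadjusted p under 0.05. The letter term together with quantile normalization, which gives every array the same distribution of values, called 13 bright probe sets, 10 higher and 3 lower, beside 0.169% of all probe sets tested. These calls numbered 0 when control B or control C was left out. They rest on the same arrays and pairing as the ranking and are no independent support for it.

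The letters paired the 5, 30 and 60 min arrays with the controls. At 90 min the deviations of the B array correlated with those of control B at -0.299. Those of the 90 min A and C arrays correlated with their controls at 0.501 and 0.311. A fit with the letter term and without the 90 min group, chosen after the data were seen, called 102 bright probe sets higher and 62 lower. Over all 11261 probe sets it called 1.4% higher and 1.17% lower, 2.58% in all. These calls depend on single arrays. They numbered 0 when control C, 5 min A, 60 min A or the C array at 5, 30 or 60 min was left out, and ran up to 367 when control A was left out. They are quoted below as adjusted p-values without 90 min, and because the genes were ranked on the same differences they are no independent support for the ranking.

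In 236 bright genes, or 6.48%, all 12 irradiated arrays were above their control, and in 77 genes, or 2.11%, all 12 were below it. The same counts over all 11261 probe sets tested gave 4.24% above and 1.89% below. The 2 sides differed in size and in brightness. On the higher side the mean difference had a median of 0.39 on the log2 scale, between 0.16 and 1.49, and 21 genes reached 1 or more. On the lower side the median was -0.67, between -1.92 and -0.18, and 13 genes lay at -1 or below. The genes of the higher side had a median level of 11.83 on the log2 scale, and those of the lower side 9.91. Over all 3641 bright genes the median difference was 0.01, with 1853 genes higher and 1788 lower. Without 60 min B and 90 min B, 392 genes had all of their 10 differences above and 231 all below, fewer differences having to agree.

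**Figure D1:**
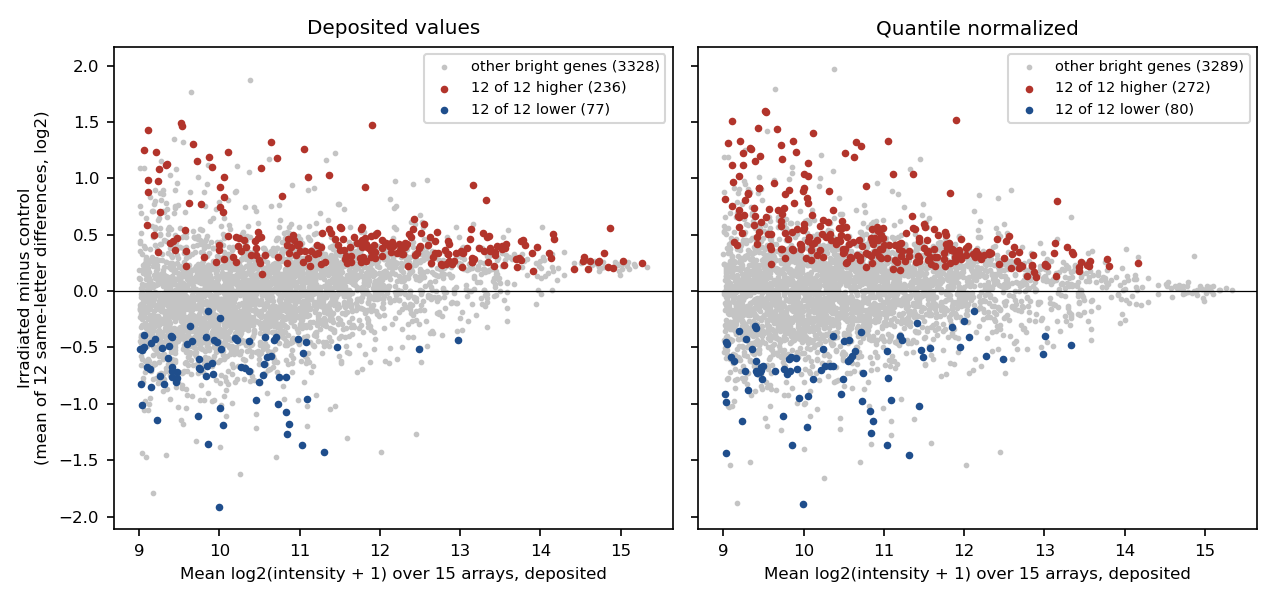
Mean of the 12 same-letter differences (irradiated minus control, log2) of each of the 3641 bright genes against its mean log2(intensity + 1) over 15 arrays, from the deposited values and after quantile normalization. Red points are genes with all 12 irradiated arrays above their control (236, or 272 after quantile normalization) and blue points genes with all 12 below (77, or 80), and on the deposited values the red points lie along the bright end while the blue points lie mostly under a level of 11.

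The split by brightness depended on the scaling of the arrays. On the deposited values the median difference was -0.13 for the 1191 genes at 9 to 10, -0.03 at 10 to 11, 0.08 at 11 to 12, 0.19 at 12 to 13 and 0.23 for the 208 genes at 13 or more. Among those 208 brightest genes 57 were above their control 12 times of 12 and 0 were below it. After quantile normalization the medians ran between -0.02 and 0.10, and 19 of the 208 brightest genes were above 12 times and 2 below. Of the 236 genes of the higher side 167 stayed above 12 times under quantile normalization, and of the 77 genes of the lower side 51 stayed below.

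**Figure D2:**
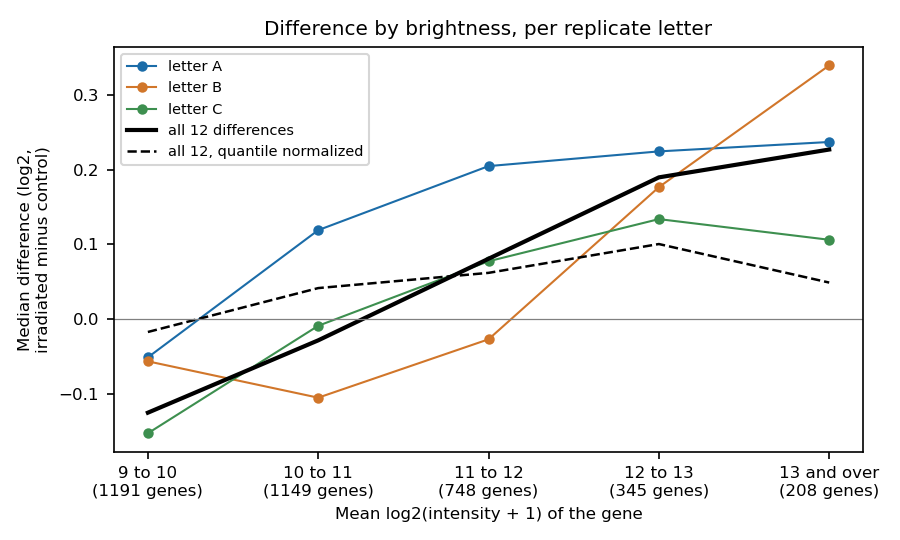
Median difference (irradiated minus same-letter control, log2) of bright genes in 5 bins of mean log2(intensity + 1), for letters A, B and C, for all 12 differences (thick line) and for all 12 after quantile normalization (dashed line). The thick line runs between -0.13 in the dimmest bin and 0.23 in the brightest, and the dashed line between -0.02 and 0.10.

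The agreement of a gene's differences carried over unevenly to a letter that was not used. Of the 405 genes with all 8 differences above in letters A and B, 58.3% also had all 4 above in letter C, against 34.1% of all bright genes. For letter A held out the shares were 54.8% of 431 genes against 50.3% of all, and for letter B 28.7% of 821 against 26.8%. The genes compared were not matched for brightness. On the deposited values the share above in 12 of 12 arrays rose from 2.60% at 9 to 10 to 27.4% at 13 or more. On the lower side 77.0% of the 100 genes below in letters A and B were also below in letter C, against 34.7% of all. With letter A held out the share was 17.6% of 438 genes against 21.6% of all, and with letter B held out 14.3% of 540 against 26.8%, so in both of these cases it was below that of all bright genes.

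The lower side was led by osk, the gene whose product assembles the germ plasm at the posterior pole of the egg. Its intensity in the irradiated arrays was between 309 and 3408 with a median of 674, against 5428, 1511 and 1031 in controls A, B and C. Every irradiated array was below the control of its letter, while the groups as a whole overlapped, with the A arrays higher than the others in both. The difference was -1.18 ± 0.77 (SE, n = 12 and 3), and -1.08, -1.15 and -1.32 within letters A, B and C (limma adjusted p = 0.978, and 0.0318 without 90 min). The array holds 3 bright probe sets for osk, and the other two lay at -1.02 and -1.27, also below control in 12 of 12 arrays.

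The next genes on the lower side had differences of similar size. The actin-binding protein gene cib had irradiated intensities between 796 and 4969 with a median of 1984, against 6519, 3694 and 2142 in the controls, a difference of -0.96 ± 0.60 (SE). RnrL, which encodes the large subunit of ribonucleotide reductase and so serves the supply of DNA precursors, had between 959 and 3281 with a median of 1447, against 4689, 2223 and 4439 in the controls. Its difference was -1.18 ± 0.38 (SE), with -0.90, -0.87 and -1.77 within the letters. It passed with the letter term and quantile normalization (limma adjusted p = 0.0427) and without 90 min (limma adjusted p = 0.0318). These fits share the arrays it was ranked on, so they do not count as separate support. RnrL is also a member of the radiation-response list.

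Fs(2)Ket, the fly importin beta that carries proteins into the nucleus, had the lowest difference of all bright genes at -1.92 ± 0.98 (SE). It measured between 228 and 4548 in irradiated arrays with a median of 604, against 6162, 2168 and 1918 in controls A, B and C. The size varied by letter, at -0.94, -1.92 and -2.89, with the irradiated C arrays the lowest. A second, dimmer probe set for Fs(2)Ket, at a mean of 8.74 on the log2 scale, did not share this, with a difference of -0.05 and 9 of 12 irradiated arrays above control. The brighter probe set passed with the letter term and quantile normalization (limma adjusted p = 0.0291). zpg, the germline innexin that joins germ cells by gap junctions, measured between 237 and 2269.8 with a median of 699 in irradiated arrays, against 2924, 989 and 2639 in controls, a difference of -1.36 ± 0.64 (SE).

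Of the other genes among the 15 top ranked on the lower side, Cdc7 (a kinase that fires replication origins) was at -1.14, stai (stathmin, which binds tubulin) at -1.11 and Pxt (a cyclooxygenase-like enzyme of oogenesis) at -1.36. twin, the CCR4 deadenylase that shortens poly(A) tails, was at -0.81, and cal1, which loads the centromeric histone, at -0.72. Alg9 (a mannosyltransferase of N-glycan synthesis) was at -1.01, Dlic (a dynein light intermediate chain) at -0.75 and Vha100-2 (a subunit of the vacuolar proton pump) at -0.75. nrv1, a beta subunit of the sodium pump, was at -0.68 and Phax, an adaptor of snRNA export, at -0.52. The 15 genes spanned levels from 9.03 to 11.09 on the log2 scale, their standard errors in the 5-group fit ran from 0.34 to 0.98, and 14 of the 15 stayed below control 12 times under quantile normalization. Without 90 min, 13 of them had a limma adjusted p under 0.05.

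**Figure D3:**
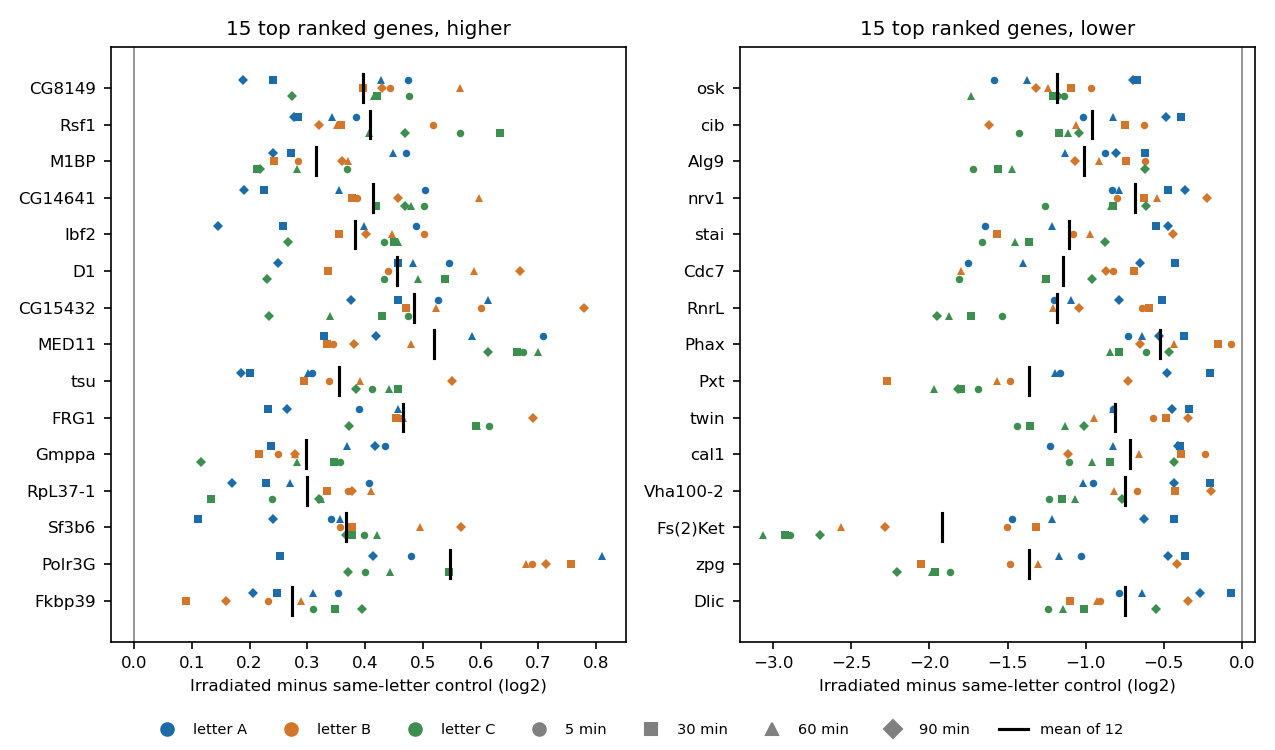
The 12 differences (irradiated minus same-letter control, log2) of the 15 top ranked genes on the higher and the lower side, coloured by letter with a symbol for each time, and their mean as a black bar. The higher side is tight and small, with means between 0.27 and 0.55, and the lower side is wide, with means between -1.92 and -0.52.

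The top ranked genes of the higher side had small differences that varied little over the 12 arrays. Rsf1, an RNA-binding protein that antagonizes SR splicing factors, measured between 2678 and 5628 in irradiated arrays with a median of 4848, against 2209.9, 3934 and 3454 in controls A, B and C. Each irradiated array was above the control of its letter and the groups overlapped. The difference was 0.41 ± 0.31 (SE, n = 12 and 3), and 0.32, 0.39 and 0.52 within the letters. D1, an AT-hook protein that binds satellite DNA, measured between 9387 and 21535 with a median of 16079.7, against 7896, 11241 and 14835 in the controls, a difference of 0.46 ± 0.28 (SE, limma adjusted p = 0.978, and 0.0318 without 90 min). Under quantile normalization it was 0.29, and all 12 arrays stayed above control.

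The other top ranked genes of the higher side with a known role were M1BP, a promoter-binding zinc finger protein, at 0.31, Ibf2, an insulator protein, at 0.38, MED11, a Mediator subunit, at 0.52, and tsu, a core protein of the exon junction complex, at 0.36. Sf3b6, a subunit of the U2 snRNP, was at 0.37, Polr3G, a subunit of RNA polymerase III, at 0.55, Fkbp39, a nuclear prolyl isomerase, at 0.27, and RpL37-1, a ribosomal protein, at 0.30. CG8149, which ranked first, was at 0.40 with the 3 letters at 0.33, 0.46 and 0.40. FRG1 was at 0.47, CG14641 at 0.41, CG15432 at 0.49 and Gmppa at 0.30. Without 90 min, 10 of the 15 had a limma adjusted p under 0.05. Under quantile normalization 12 stayed above control 12 times, the others being RpL37-1 and Fkbp39, each above 9 times, and Sf3b6, above 11 times. Ranking by the weakest of the 3 letter means in place of the mean over its spread gave 15 other genes on the higher side, with 0 shared, and shared 11 of 15 on the lower side.

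The largest differences of the higher side belonged to other genes, mostly dimmer and with a spread between letters. PH4alphaEFB, a collagen prolyl hydroxylase, was at 1.49 ± 0.78 (SE), NimC4, a receptor for dying cells on phagocytes, at 1.46 ± 0.72 and gbb, a BMP ligand, at 1.18 ± 0.64. Cyp310a1, a cytochrome P450 gene of the ventral and mesoderm list, was at 1.30 ± 0.57 and hll, an acyl-CoA synthetase, at 1.26 ± 0.52. Atx-1, the fly ataxin-1, was at 1.23 ± 0.53. These 6 genes passed with the letter term and quantile normalization (limma adjusted p between 0.0291 and 0.0427), as did corn, CG12581, CG1671 and CG5346. In each of the 6 the A arrays differed least from control, by 0.37 in gbb up to 0.69 in hll, and the C arrays by 1.55 to 2.35. Among genes as large that did not pass that fit were Obp99a at 1.48, CG5171 at 1.42, CG34224 at 1.33 and bowl at 1.25. Obp99a differed least in letter B, by 0.70 against 1.44 in A, and the others in A. Over the control arrays PH4alphaEFB, NimC4, Cyp310a1, corn, CG1671, CG5171 and bowl averaged under the brightness threshold of 9. They counted as bright only through the irradiated arrays.

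Beyond osk, most bright genes of the list of messages stored by the mother were lower in the mean of the 12 differences. This maternal list had 35 genes on the array, of which 23 were bright. Of these 21 were lower, some by little, as me31B at -0.0042 and ea at -0.05, and 2 were higher. The median of the 23 was -0.49 against 0.01 for all bright genes. None passed in the 5-group fit, and 2 genes, osk and spn-E, a piRNA pathway helicase, were below control in 12 of 12 arrays, beside 1.89% of all probe sets. Within the letters the median was 0.03, -0.58 and -0.52 for A, B and C. In the A arrays the list was divided, with members from -2.79 in alphaTub67C to 0.39 in pum. The median of the list was -0.59 under quantile normalization, -0.35 without 60 min B and 90 min B and -0.25 without letter B. Without 90 min, beside 1.17% of all probe sets called lower, 8 of the 23 passed as lower in limma, BicC, alphaTub67C, gcl, gnu, mtrm, osk, smg and swa, and 0 as higher. alphaTub67C, the maternal alpha-tubulin, had the lowest difference of the list at -1.79 ± 0.76 (SE), but 0.10 in letter B, where control B at 343 was lower than control A at 3482 and control C at 3176. The highest was vls, a germ plasm methylosome protein, at 0.38.

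The pole cell markers share 5 of their 6 bright genes with the maternal list, so they are no separate evidence. All 6 were lower, with a median of -0.81 and letter medians of -0.50, -0.82 and -1.09. They were zpg and osk, already described, ovo, a germline transcription factor, at -0.81 ± 0.32 (SE), gcl, a germ cell factor that limits transcription, at -0.81 ± 0.52, CycB at -0.12 and the Argonaute gene aub at -0.08. Without 90 min, gcl, osk and zpg passed in limma. The summed intensity of the 10 measured pole cell markers was between 19854 and 34398 in irradiated arrays, against 23405 to 36501 in control arrays, and the ranges overlapped.

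Genes of the vacuolar ATPase, the proton pump of endosomes and yolk granules, were lower in 11 of 15, with a median of -0.29. The letter medians were -0.24, -0.11 and -0.36, all of 1 sign, and the median was -0.28 under quantile normalization and -0.23 without 60 min B and 90 min B. Subunits Vha55 at -0.76 ± 0.51 (SE), Vha44 at -0.76 ± 0.69, Vha100-2 and VhaSFD at -0.43 ± 0.22 were below control in 12 of 12 arrays, beside 1.89% of all probe sets. Without 90 min, Vha55, Vha100-2 and Vha13 passed as lower (limma adjusted p = 0.0328, 0.0354 and 0.0495), beside 1.17% of all probe sets. At a brightness threshold of 10 the median of the list was -0.19. VhaM9.7-c, at 0.28, was the highest. Of the 31 genes of this list on the array 15 were bright, and the dimmer ones are not described here.

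**Figure D4:**
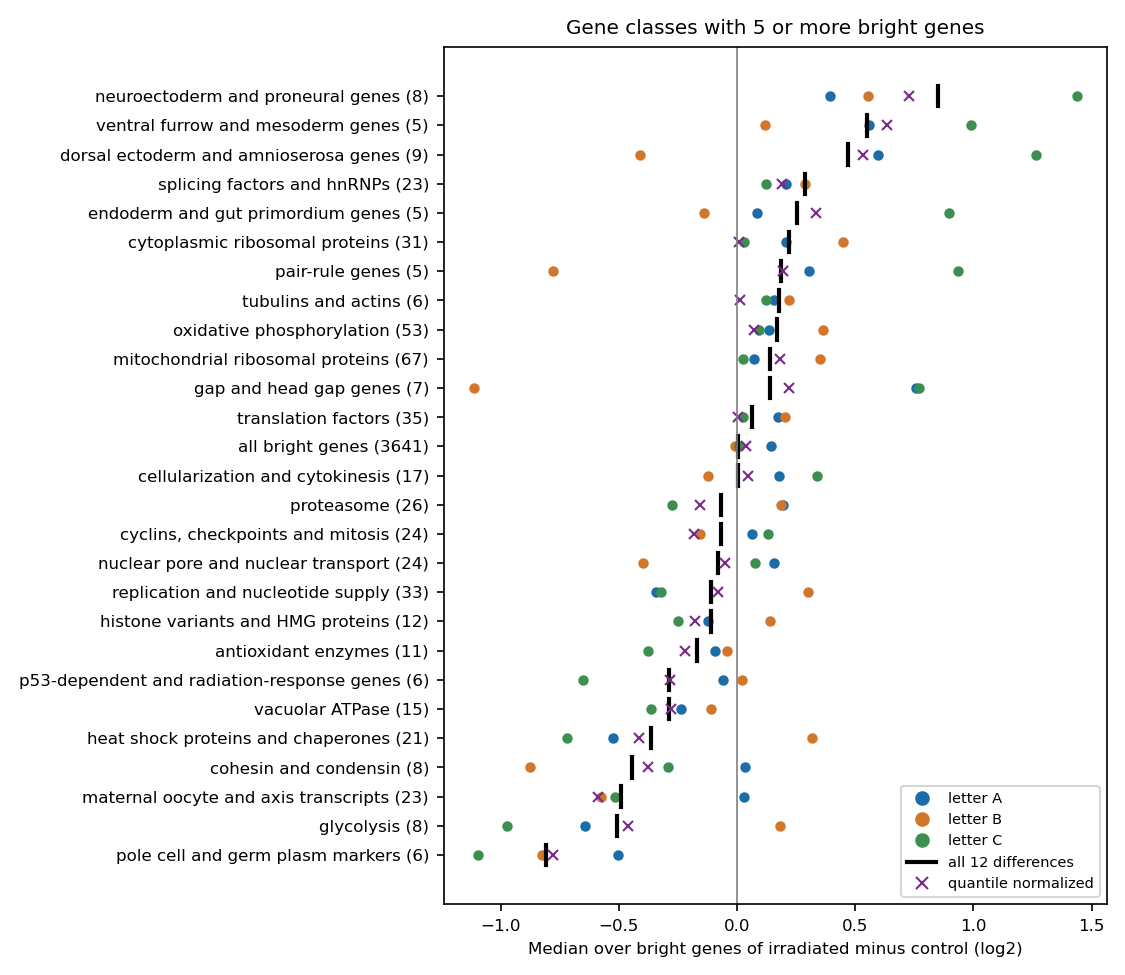
Median difference (irradiated minus control, log2) of the bright genes of each list with 5 or more of them, for letters A, B and C (points), all 12 differences (bar) and all 12 after quantile normalization (cross), with the number of bright genes in brackets. The lists of pole cell markers and of neuroectoderm genes lie at the 2 ends, at -0.81 and 0.85, and letter B (orange) lies on the other side of 0 from A and C in several lists, among them the gap, pair-rule, glycolysis and heat shock genes.

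In other classes on the lower side the letters disagreed. All 8 bright genes of glycolysis were lower, with a median of -0.51, but the letter medians were -0.64 in A, 0.18 in B and -0.97 in C. The median was -0.24 without letter A and -0.21 without letter C. Tpi, the triosephosphate isomerase, was lowest at -0.99 ± 0.67 (SE) with 1.45 in letter B, and Pglym78, a phosphoglycerate mutase, was highest at -0.07. None of the 8 passed in any fit shown here. Of 21 heat shock proteins and chaperones 19 were lower, with a median of -0.36 and letter medians of -0.52, 0.32 and -0.72. It was -0.64 without letter B and -0.14 without letter C. The small heat shock gene Hsp27 was lowest at -1.30 ± 0.60 (SE) and passed without 90 min (limma adjusted p = 0.0353). The chaperones Hsc70-3 at -0.51 and Hsp110 at -0.44 were below control in 12 of 12 arrays, and Gp93, an endoplasmic reticulum chaperone, was above it in 12 of 12, at 0.34. These are 9.52% of the class below and 4.76% above, beside 1.89% and 4.24% of all probe sets.

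Cohesin and condensin genes, which shape mitotic chromosomes, were lower in 8 of 8 with a median of -0.44. The letter medians were 0.03, -0.87 and -0.29, so letter B had the lowest, and the median was -0.22 without 60 min B and 90 min B and -0.19 without letter B. pds5, a cohesin regulator, was lowest at -0.73 ± 0.27 (SE) and passed without 90 min (limma adjusted p = 0.0354), and san, an acetyltransferase of sister chromatid cohesion, was highest at -0.12. Of 33 genes of replication and nucleotide supply 22 were lower and 11 higher, with a median of -0.11. The letters disagreed, with medians of -0.34, 0.30 and -0.32, and the median was -0.04 without letter A, -0.33 without B and -0.01 without C. Their lowest member was RnrL and their highest Prim1, a primase subunit, at 0.40.

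The cell cycle list divided. Of 24 bright genes 14 were lower and 10 higher, with a median of -0.07 that lay between -0.13 and -0.04 with an array or letter left out, at -0.04 without 60 min B and 90 min B and at -0.18 under quantile normalization. The mitotic kinase gene aurB at 0.29 ± 0.20 (SE) and borr, which encodes borealin, at 0.41 ± 0.25, were above control in 12 of 12 arrays, also under quantile normalization. These are 8.33% of the list, beside 4.24% of all probe sets and 7.62% of the bright genes at 11 to 12, where its median level lay. mtrm, an oocyte inhibitor of Polo kinase, was at -1.47 ± 0.53. Histone variants and HMG proteins divided too, with 5 higher and 7 lower. D1 and the gene of heterochromatin protein HP1a (0.42 ± 0.28) were above control 12 times of 12. They are 16.7% of the class, beside 4.24% of all probe sets and 13.9% of the bright genes at 12 to 13, where its median level lay. Jabba, which anchors maternal histones on lipid droplets, was at -1.62 ± 0.81, and Lsd-2, a perilipin of the same droplets that is in no list, at -1.43 ± 0.67 and below control in 12 of 12 arrays.

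Splicing factors and hnRNPs were mostly higher. Of 23 bright genes 19 were higher, with a median of 0.29, letter medians of 0.21, 0.29 and 0.12, and 0.19 under quantile normalization. Rsf1, SC35, SF2, SmF, U2af50 and noi, or 26.1% of the class, were above control in 12 of 12 arrays. That share stands beside 4.24% of all probe sets and 13.9% of the bright genes at 12 to 13, where the class had its median level. The bright genes at 12 to 13 had a median difference of 0.19, and of 0.10 under quantile normalization. After quantile normalization 4 of the class were above control in 12 of 12 arrays. SF2, an SR protein, measured between 10889 and 23517 in irradiated arrays with a median of 18415, against 10019, 12664 and 16647 in controls A, B and C. Its difference was 0.39 ± 0.27 (SE). SC35, another SR protein, was at 0.51 ± 0.50 and B52 at 0.54 ± 0.28. B52, Rsf1, SC35 and SF2 passed without 90 min (limma adjusted p between 0.0354 and 0.0445). Prp8, a core spliceosome protein, was lowest at -0.48.

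Genes of the cytoplasmic ribosome were higher in 30 of 31, with a median of 0.22, but this median was 0.01 under quantile normalization. 8 of them, or 25.8%, were above control in 12 of 12 arrays on the deposited values, beside 4.24% of all probe sets and 27.4% of the bright genes at 13 or more, the range of all 31, and 0 were so after quantile normalization. RpL37-1 was the highest, at 0.30 ± 0.13 (SE), and RpL27 the lowest, at -0.03. The letter medians were 0.21, 0.45 and 0.03, and the median was 0.11 without letter B. Mitochondrial ribosomal protein genes were higher in 48 of 67 with a median of 0.14, and 0.18 under quantile normalization. Letter B had the highest of their letter medians, which were 0.07, 0.35 and 0.02, and the median was 0.08 without 60 min B and 90 min B and 0.05 without letter B. 2 of the 67, or 2.99%, mRpL19 and mRpS33, were above control in 12 of 12 arrays, a share under the 4.24% of all probe sets, and mRpL12 was below it in 12 of 12, at -0.43.

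Genes of oxidative phosphorylation were higher in 37 of 53, with a median of 0.17, of 0.07 under quantile normalization and of 0.11 without 60 min B and 90 min B. Cyt-c1 (0.48 ± 0.28, SE) and UQCR-14 (0.49 ± 0.22) of the cytochrome bc1 complex led the 9 genes above control in 12 of 12 arrays, a count that was 6 after quantile normalization. These 9 are 17.0% of the class, beside 4.24% of all probe sets and 13.9% of the bright genes at 12 to 13, where the median level of the class lay. Both passed without 90 min (limma adjusted p = 0.0318 and 0.0354). blw, the alpha subunit of ATP synthase, was below control in 12 of 12, at -0.43. Translation factors were higher in 22 of 35 with a median of 0.06, of 0.00 under quantile normalization and of 0.10 without 60 min B and 90 min B, and between 0.04 and 0.12 with an array or letter left out. Of these 35, 6 were above control in 12 of 12 arrays and 3 below, beside 4.24% and 1.89% of all probe sets. The 6 are 17.1% of the class, beside 13.9% of the bright genes at 12 to 13, where its median level also lay. The 3 below were eIF4E1, the cap-binding protein, at -1.07 ± 0.84 (SE), eIF4G2 at -0.83 and eIF5B at -0.45. After quantile normalization 0 of the class were above control in 12 of 12 arrays and 3 below. Proteasome genes, with 11 higher and 15 lower and a median of -0.07 that lay between -0.10 and 0.02 with an array or letter left out, had none in 12 of 12 on either side.

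Genes that the embryo switches on itself were higher in part. The neuroectoderm and proneural list had 21 genes on the array, of which 8 were bright. All 8 were higher, with a median of 0.85 and letter medians of 0.39, 0.56 and 1.44. The brightness threshold favours genes that are higher in the irradiated arrays, so this direction was set in part by it. Under quantile normalization the median was 0.73, without 60 min B and 90 min B it was 0.89, and without letter C it was 0.51. BobA, Tom and E(spl)m5-HLH, which act in Notch signalling, and mira, an adaptor of neuroblast division, were above control in 12 of 12 arrays, beside 4.24% of all probe sets. E(spl)m5-HLH measured between 294 and 2509 in irradiated arrays with a median of 648, against 220.5, 639.8 and 188 in controls A, B and C, a difference of 1.23 ± 0.66 (SE). The groups overlapped, since control B was close to the median irradiated array. Over the control arrays E(spl)m5-HLH averaged under the threshold of 9, so it counted as bright only through the irradiated arrays. BobA was at 0.81 ± 0.48, mira at 0.92 ± 0.46, Tom at 0.94 ± 0.40 and Ocho at 0.89 ± 0.53, and these 5 genes passed without 90 min (limma adjusted p between 0.0318 and 0.0447). The lowest of the list was E(spl)m4-BFM, at 0.40.

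**Figure D5:**
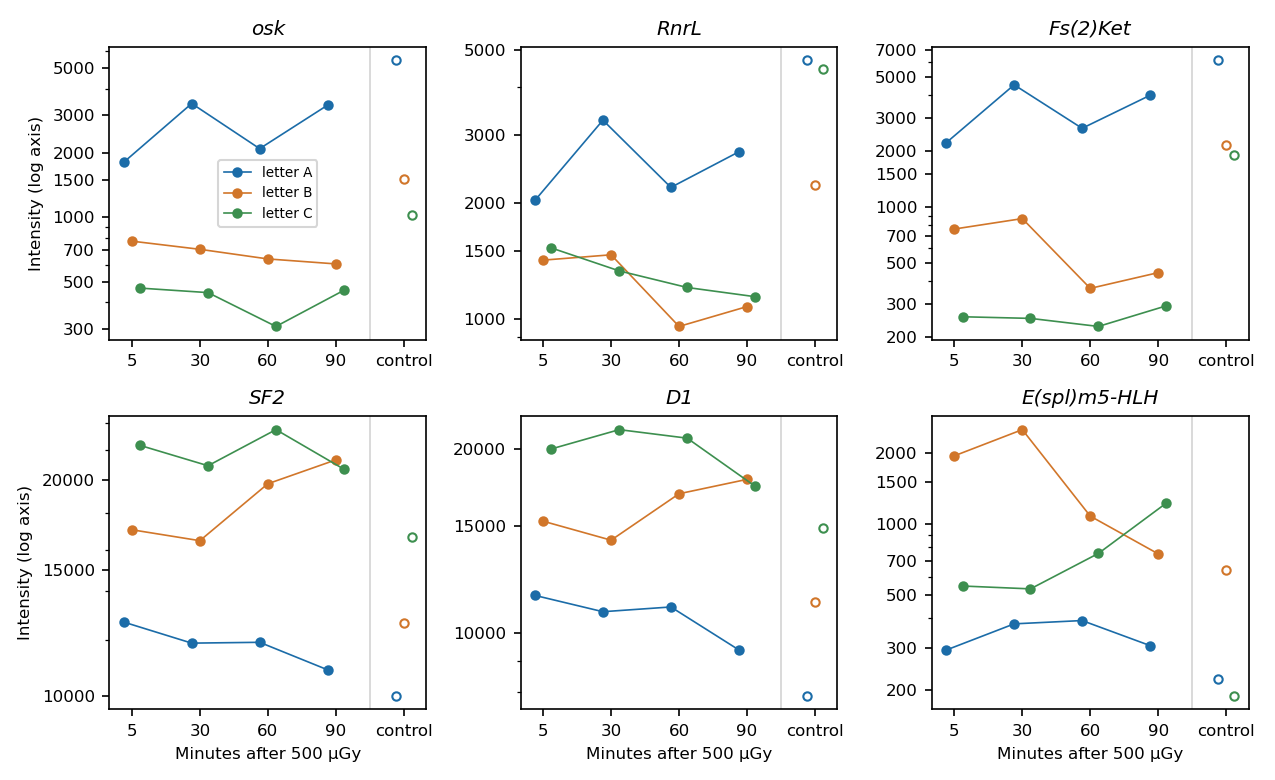
Intensity (log axis) of 6 genes at 5, 30, 60 and 90 min after 500 µGy (filled points, lines join the arrays of a letter) and in the control arrays (open points), coloured by letter. In osk, RnrL and Fs(2)Ket every filled point is below the open point of its letter and in SF2, D1 and E(spl)m5-HLH above it, while the letters differ from each other by as much or more.

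Ventral furrow and mesoderm genes had 5 bright genes of 14 on the array. All 5 were higher, with a median of 0.55, and of 0.36 without letter C. twi, the mesoderm master gene, was at 0.57 ± 0.33 (SE), with 0.80, -0.08 and 0.99 within the letters, and sna, the mesoderm repressor, was lowest at 0.21. Of 9 genes of the dorsal ectoderm and amnioserosa 6 were higher, with a median of 0.47 and letter medians of 0.60, -0.41 and 1.26. The median was 0.80 without 60 min B and 90 min B, 0.92 without letter B and 0.07 without letter C. Ance, an angiotensin-converting enzyme homologue, was above control in 12 of 12 arrays at 1.09 ± 0.57, and Ama, an adhesion protein, was at 0.98 ± 0.45. Both passed without 90 min (limma adjusted p = 0.0429 and 0.0354). Below control was scw, a BMP ligand of the blastoderm, at -0.67.

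The differences of gap and pair-rule genes varied in sign with the letter. The gap genes had letter medians of 0.76, -1.11 and 0.77, and the pair-rule genes 0.31, -0.78 and 0.94. Over all 12 differences their medians were 0.14 and 0.19, without 60 min B and 90 min B 0.46 and 0.49, without letter B 0.76 and 0.63, and without letter C -0.18 and -0.19. The gap genes were also at -0.17 without letter A. Control C held low levels of several of them, with 142 for Kr, 117 for odd and 109 for opa, against 2656, 1797 and 2978 in control B. cad, the posterior homeobox gene whose message is also loaded by the mother, was the exception. It was below control in 12 of 12 arrays, by -0.39, -1.33 and -1.28 within the letters. nullo, a blastoderm cellularization gene, had 0.79, -3.67 and -1.12 within the letters.

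The radiation-response list was lower mainly in letter C. Its 6 bright genes had a median of -0.29, with letter medians of -0.06, 0.02 and -0.65, and of -0.10 without letter C. Of the 6, 1 was higher and 5 lower, among them p53 at -0.02. Traf4, a signalling adaptor, was at 0.94 ± 0.56 (SE), above control in 11 of 12 arrays, with 0.39, 0.41 and 2.03 within the letters and a control C of 412 against 1245 and 2874 in controls A and B. The checkpoint kinase genes lok and grp, the fly Chk2 and Chk1, were at -0.40 ± 0.27 and -0.35 ± 0.35. The nuclease gene mre11 was at -0.23 ± 0.44 and p53 itself at -0.02 ± 0.26, above control in 6 of 12 arrays. The 11 other genes of the list on the array were not bright. Among 11 antioxidant genes 7 were lower, with a median of -0.17 that was -0.26 without 60 min B and 90 min B, -0.07 without letter C and 0.00 without letter A, led by dhd, a thioredoxin of the egg, at -1.43 ± 0.82, and Trxr1, the thioredoxin reductase, at -0.92 ± 0.41.

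At the single times the medians of the 2 sides are a description only, since the genes were chosen for lying on 1 side at every time. The genes of the higher side had medians of 0.40, 0.31, 0.43 and 0.42 at 5, 30, 60 and 90 min, and those of the lower side -0.68, -0.52, -0.73 and -0.59. Since every time is set against the same 3 controls, these values share them. The pole cell markers had medians of -1.09, -0.72, -0.96 and -0.31 over the times and the neuroectoderm genes 0.92, 0.82, 0.93 and 0.72.

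The groups as a whole hardly ever separated. 3 of the 3641 bright genes, CG31126, M6 and pasi1, had every irradiated array above every control array, a share under the 0.195% of all probe sets tested. The reverse was seen in 0 bright genes, beside 0.00888% of all probe sets. Where a gene in 12 of 12 arrays had further probe sets, 12 of 14 on the higher side and 5 of 5 on the lower side lay in the same direction as the one counted by their mean, the least of them Fs(2)Ket at -0.05. Of these probe sets 5 of 14 and 2 of 5 were themselves on that side in 12 of 12 arrays, and both of the 2 are of osk. Of the marker lists of other tissues, 0 genes were bright among 17 of the eggshell and follicle cells and 0 among 11 of adult and larval tissues. The summed intensity of the eggshell list was 335 to 799 in irradiated arrays and 436 to 760 in control arrays. That of the hemocyte and basement membrane list, with 2 bright genes of 17, was 2847 to 15094 in irradiated arrays and 1295 to 7002 in control arrays. The list of late embryonic muscle, nerve and cuticle genes, with 3 bright genes of 16, summed to 2090 to 16533 in irradiated arrays and 2578 to 13283 in control arrays. The part of these lists in the results was not tested. The brightness threshold divides a continuous range. Doc3, PNUTS and TTLL12 lay just outside it, at 8.97, 8.98 and 8.99 with differences of 0.90, 0.69 and 0.46. Sfxn1-3, bsk and Zcchc7 lay just inside, at 9.01, 9.02 and 9.02 with differences of -0.51, 0.85 and -0.82.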

How the data were processed

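RNA of 15 embryo samples was measured on 1 Affymetrix array each. The deposited table holds 1 array intensity per probe set on a linear scale. The tool was MAS5, per the submitters' processing notes, and its version and scaling are not given in the sources used here. The intensity of each deposited column had a mean of 500.01 to 500.02 after trimming 2% at either end and a median of 29.05 to 43.32, and this scaling was kept. No detection call was used, and the number of arrays limits precision.

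Symbols came from the platform's annotation, with 13646 of 18952 probe sets having 1 gene symbol, 402 several and 4904 none, and 13543 were matched to the RefSeq table of Release 6, which changed none of them. Genome positions and sequences are not given. A gene with several bright probe sets was taken from the one with the highest mean. Deposited values were taken to log2(intensity + 1), on which every difference is given, so differences of dim genes are understated. The 18769 probe sets that are no Affymetrix controls were filtered at the 40th percentile of mean log2, leaving 11261. They were fitted with limma 3.58.1 in R 4.3.3 with the 5 groups and an intensity trend, with two-sided tests and Benjamini-Hochberg adjustment at 0.05. Ratios of control genes were compared by exact permutation.

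Letters were taken to pair a time with control where all 3 correlations of deviations were over 0.1. They ran from 0.217 to 0.665 at 5, 30 and 60 min, while at 90 min they were 0.501 for A, -0.299 for B and 0.311 for C. The labels do not say what else arrays of a letter share. At 90 min only the B array was under 0.1, but by this rule the letters were not shown to pair at that time. The 90 min differences within letters use them nonetheless.

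The genes, the 27 gene classes and the 5 marker lists were chosen with earlier results of these data known. Named are the 15 genes a side with the highest ratio of mean difference to SD among those in 12 of 12 arrays, the extremes of each class, its members in 12 of 12 arrays, and the bright radiation genes. Other genes (those passing a fit and the 6 large differences) were chosen after their values were seen. 1 gene that a name pattern had put in the proteasome list and 2 of unsure role in the radiation list were taken out after their values were seen. The code was tested on simulated data.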

Additional observations from a re-analysis of the deposited data

How the results depend on the processing

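The count of bright probe sets called for the irradiated mean was 0 in limma and stayed 0 with a pseudocount of 16, quantile normalization, centring, other filters, no trend, without any 1 array, without any letter, without the 90 min group, and with the replicate block as a fixed or random term. It was 13 with the replicate block on quantile-normalized values, 33 when control A was also left out and 0 when control B or C was. Among fits chosen after seeing the data, the replicate block with quantile normalization called 206 without the 90 min group and 313 without 60 min B and 90 min B, and the replicate block alone called 164 and 210. Leaving out 1 more array from the fit that called 164 gave 367 (control A), 309 (30 min A), 256 (control B), 149 (60 min B), 113 (30 min B), 32 (5 min B) and 0 for the other 6 arrays. The cause was not tested. The slope gave 0 in every fit run. The single times gave 0 except in fits chosen after seeing the data. With the replicate block and quantile normalization these were 4, 1 and 5 at 5, 30 and 60 min without control A, and 1 at 5 min without the 90 min group and also without 60 min B and 90 min B. With the replicate block without the 90 min group they were 59, 10 and 166 without control A, 98, 13 and 92 without control B and 22, 17 and 18 without 30 min A.

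The counts in all arrays were 236 higher and 77 lower, 463 and 216 without the 90 min group, 392 and 231 without 60 min B and 90 min B, and between 236 and 821 higher and 77 and 540 lower when an array or letter was left out, fewer differences having to agree. Letter by letter, 431 and 438 were counted without A, 821 and 540 without B, and 405 and 100 without C. Without 90 min B alone 177 were lower. The lower count was 129 at a brightness threshold of 8 and 34 at 10, by the number of genes counted.

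Of the class medians, quantile normalization gave 0.010 for cytoplasmic ribosomal proteins, 0.19 for splicing factors and 0.014 for tubulins and actins, where the deposited values gave 0.22, 0.29 and 0.18. Splicing factors were at 0.21 without 60 min B and 90 min B. Tubulins and actins were at 0.24 after centring, 0.24 without the 90 min group, 0.23 at a threshold of 8 and between 0.16 and 0.25 with an array or letter left out. The endoderm genes, at 0.26, lay between -0.067 and 0.85 with an array or letter left out and at -0.37 at a threshold of 10. With a letter left out the sign also turned for gap genes (-0.17 without A, -0.18 without C), pair-rule genes (-0.19 without C), nuclear transport genes (0.15 without B, and 0.08 without 60 min B and 90 min B), antioxidant genes (0.00 without A), histone variants and HMG proteins (0.00 without A) and the proteasome (0.02 without C). The eIF-4a ratio lay between -0.066 and 0.056 with a control left out, the positive value without control C, and the GAPDH ratio was between 0.11 and 0.29 with a control left out, with an exact permutation p of 0.022 at 0.29. The rank by the weakest letter mean shared 0 of 15 genes on the higher side. Of 1410 values of the 30 top ranked genes over 47 alternatives, 1409 kept their sign. Fkbp39 turned to -0.0042 in 1, the replicate block with quantile normalization without control C. The 30 genes were chosen for having every same-letter difference on the same side, so their signs were largely set by that choice. The count of kept signs is therefore a description only and no test of the ranking. A search of promoter letters was not run.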

Other observations

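Several bright genes outside the lists had large differences. Gli, a septate junction protein of glia and epithelia, was at 1.19 ± 0.46 (SE, n = 12 and 3), bou, a Ly6 protein of septate junctions, at 1.15 ± 0.54 and noc, a zinc finger protein of the head and limb primordia, at 1.03 ± 0.40. All had 12 of 12 irradiated arrays above their control. Obp99a, of the odorant-binding protein family, was at 1.48 ± 0.98, with 1.44, 0.70 and 2.29 within letters A, B and C. Ubi-p5E, a polyubiquitin gene, was at -1.26 ± 0.51 and CAH3, a carbonic anhydrase, at -1.04 ± 0.46, both below control in 12 of 12 arrays. None of the 6 passed in limma with all groups (adjusted p = 0.978), and they were chosen after their values were seen.

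Of the 236 genes of the higher side 45, or 19.1%, were in a list, and of the 77 genes of the lower side 17, or 22.1%, against 13.1% of all 3641 bright genes. The lists were chosen with earlier results of these data known, so these shares are a description only. Genes known by a CG number alone made up 24.6% of the higher side and 19.5% of the lower side, against 27.4% of all bright genes.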
